A study of Homo sapiens with 24 samples.

Results

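Chromosome arm 5p is the short arm of human chromosome 5, taken here as the stretch from the telomere to 48 Mb on GRCh38. The 53 genes described lie along it, out of 29744 genes in the count table and 200 table genes that RefSeq places on the arm. They are the rows whose gene name stands on a list of 5p genes, and the list was made because these genes ran lower in fusion-derived HCC1806 cells than in the parental cells. Values of that contrast therefore chose the members, and they are given below as a description without a test. All 53 names were found in the table. After the filter on low counts, 49 members could be fitted in HCC1806 and 48 in MDA-MB-231. TERT, NKD2, GHR and FBXL7 were left out in both lines with at most 8 counts in any library, and SEMA5A was left out in MDA-MB-231 with at most 6.

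The RNA was read by TAGseq, which counts tags from the 3′ ends of polyadenylated transcripts, in 24 libraries taken after 48 hours of growth in plates. Both lines are established triple-negative breast cancer lines, HCC1806 with basal epithelial features and MDA-MB-231 with mesenchymal ones. In each line the control was the parental aneuploid population, and the other 3 populations had doubled their genome: 1 through fusion of cells, 1 through cytokinesis failure (the nucleus divides and the cell does not) and 1 through mitotic slippage (exit from mitosis with no division). The doubled cells had been sorted by FACS and expanded, no agent was added after plating, and each of the 8 groups held 3 biological replicates. Each route is represented by 1 derived population per line, so a route and the population that stands for it cannot be told apart. The p-values measure the spread between replicates of a population.

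All genes on a chromosome arm share that arm's copy number unless a smaller gain or loss divides it, and RNA levels of many genes tend to follow DNA copy number while others are held near a set level or are governed by their own promoters. Cells with doubled genomes often lose or gain whole chromosomes and arms as they grow. Arm 5p carries genes of very different roles, among them the ubiquitin ligase subunit SKP2, the cohesin loader NIPBL, the microRNA-processing enzyme DROSHA, several ribosome assembly and translation factors, and the receptors LIFR and GHR. The low-pass DNA sequencing that belongs to the study was not analysed here, so none of the values below is a copy number.

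Estimated counts summed to between 3060622 and 4030297 per library in HCC1806 and to between 2455707 and 3837957 in MDA-MB-231. KRT5, a basal keratin, had 1135 to 1934 counts in HCC1806 libraries against 0 to 1 in MDA-MB-231, and VIM, a mesenchymal filament protein, had 7598 to 11262 in MDA-MB-231 against 0 to 7 in HCC1806. Both lines thus carried the markers of their labels. Levels below are CPM, the counts of a library brought to a common total with TMM scaling within each line, and differences are log2 fold differences from edgeR with their standard error (SE). In bulk RNA, fewer cells expressing a gene and less RNA per cell cannot be told apart.

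In fusion-derived HCC1806 cells the members ran lower by a median of -0.20 on the log2 scale, a ratio of 0.869, with the middle of the distribution between -0.28 and -0.13. The fitted difference was below 0 for 45 of the 49 members. At an adjusted p below 0.05, 21 members would be called lower and 0 higher, beside 5.55% and 5.33% of all 11467 tested genes. The members were chosen on this contrast, so nothing is read from these counts. In 28 members all 3 fusion libraries lay below all 3 control libraries, a pattern held by 13.3% of all tested genes. In 18 members the 3 fusion libraries also lay below the slippage and cytokinesis failure libraries, 9 others in all, beside 4.5% of all tested genes. Those 18 include SKP2, NIPBL, the splicing-associated zinc finger gene ZFR, the mitochondrial transhydrogenase gene NNT and the nuclear pore gene NUP155. The summed level of 6 basal epithelial markers was also lower in the fusion libraries, at 1364 to 1425 CPM against 1505 to 1596 in the controls, but it was as low after slippage (1354 to 1401) and cytokinesis failure (1288 to 1348). All 6 were detected in every group, and their part in the result was not tested.

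**Figure D1:**
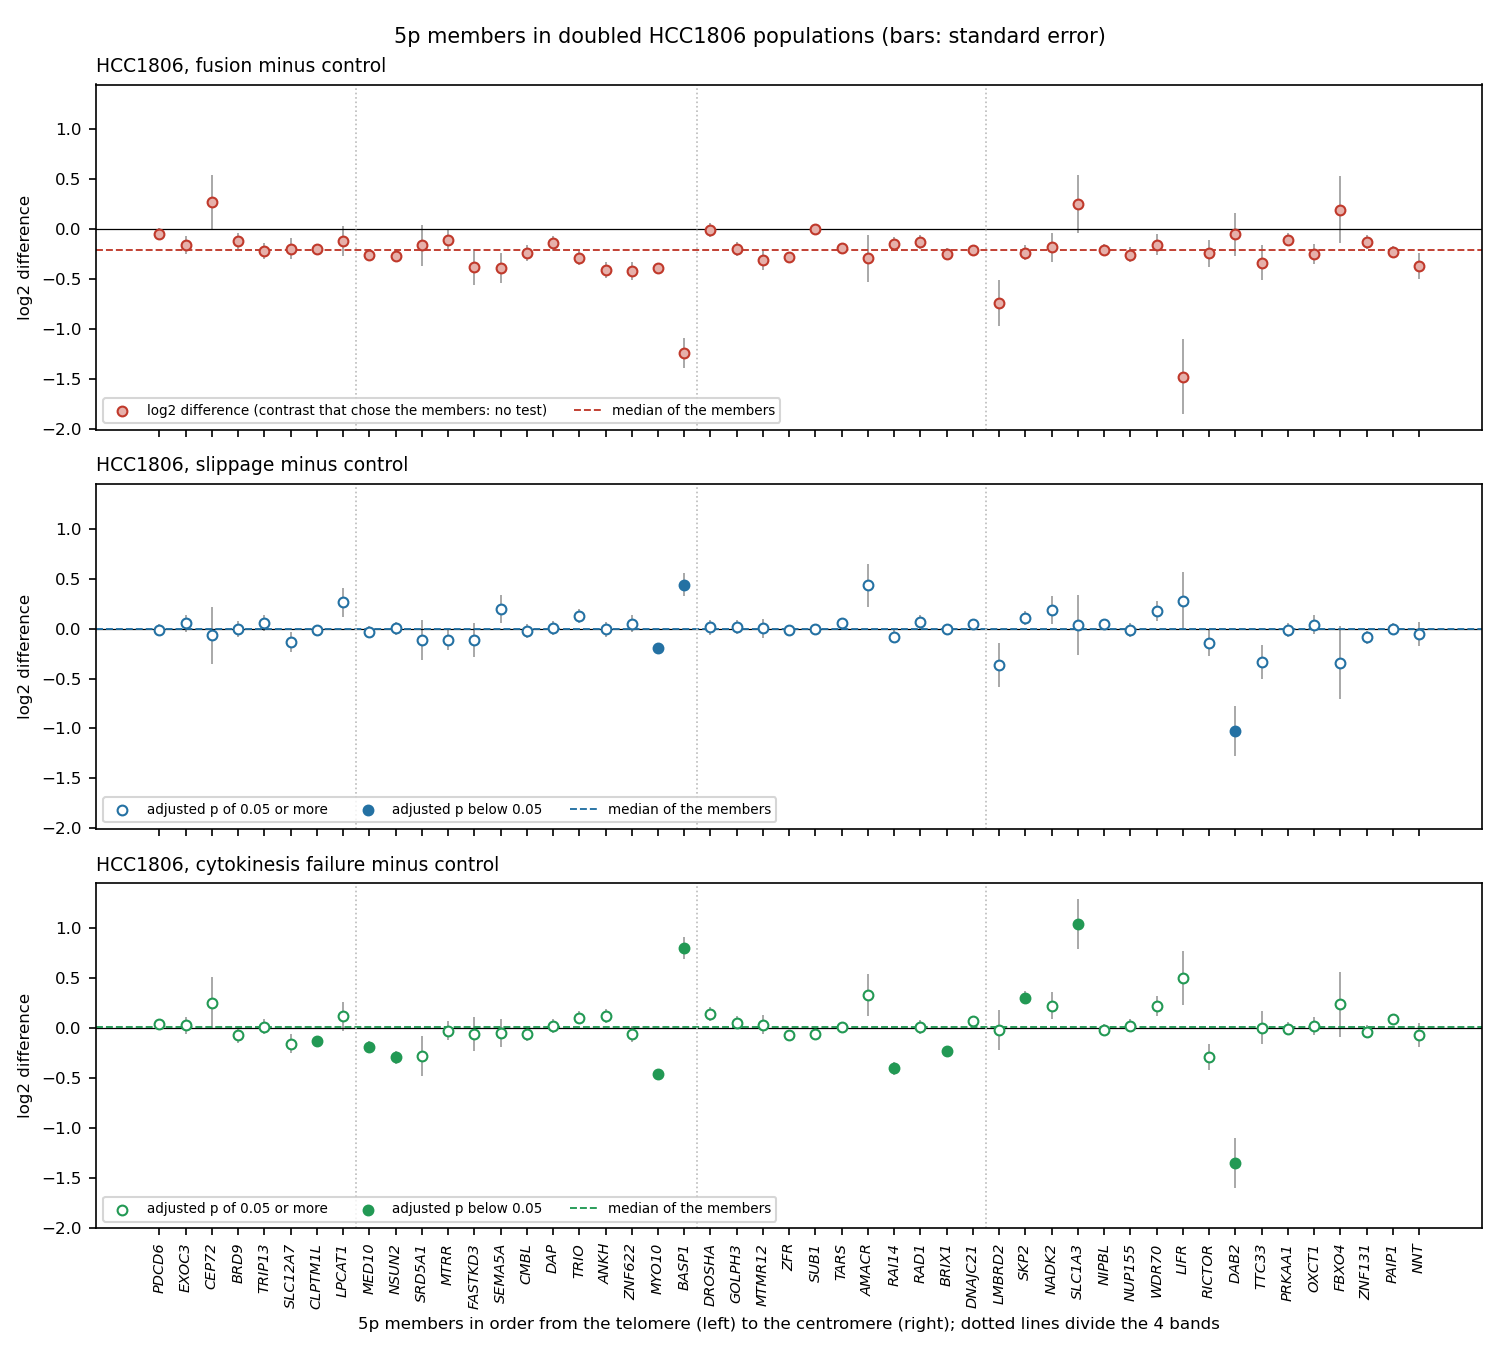
Log2 difference from control (vertical axis) of the 49 tested 5p members in HCC1806, in order along the arm (horizontal axis), for fusion, slippage and cytokinesis failure; bars are standard errors, dashed lines are medians of the members, and filled points in the lower panels have an adjusted p below 0.05. The fusion points gather around -0.20, with BASP1 and LIFR far below, while the other 2 panels gather around 0.

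The shift was similar in each fusion library. Measured against the mean of the controls, the median over members was -0.21, -0.21 and -0.24 in the 3 fusion libraries. It was -0.0045, 0.033 and -0.021 in the controls, and every slippage and cytokinesis failure library lay between -0.027 and 0.034. The 46 tested 5p genes that are not members had a median of -0.17 in fusion against control, with 38 of them below 0, while the 411 tested genes of the long arm, 5q, had -0.017. All tested genes had a median of -0.0031. These other 5p genes are not on the list, but they share its arm and its fusion and control libraries. The list was made for lower values of 5p genes in this same contrast, so these values too are only a description. Among them the lowest values belonged to PDZD2 at -1.46, IRX4 at -0.82 and SNHG18 at -0.57. The highest belonged to FYB at 0.24, PP7080 at 0.10 and RPL37 at 0.07.

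**Figure D2:**
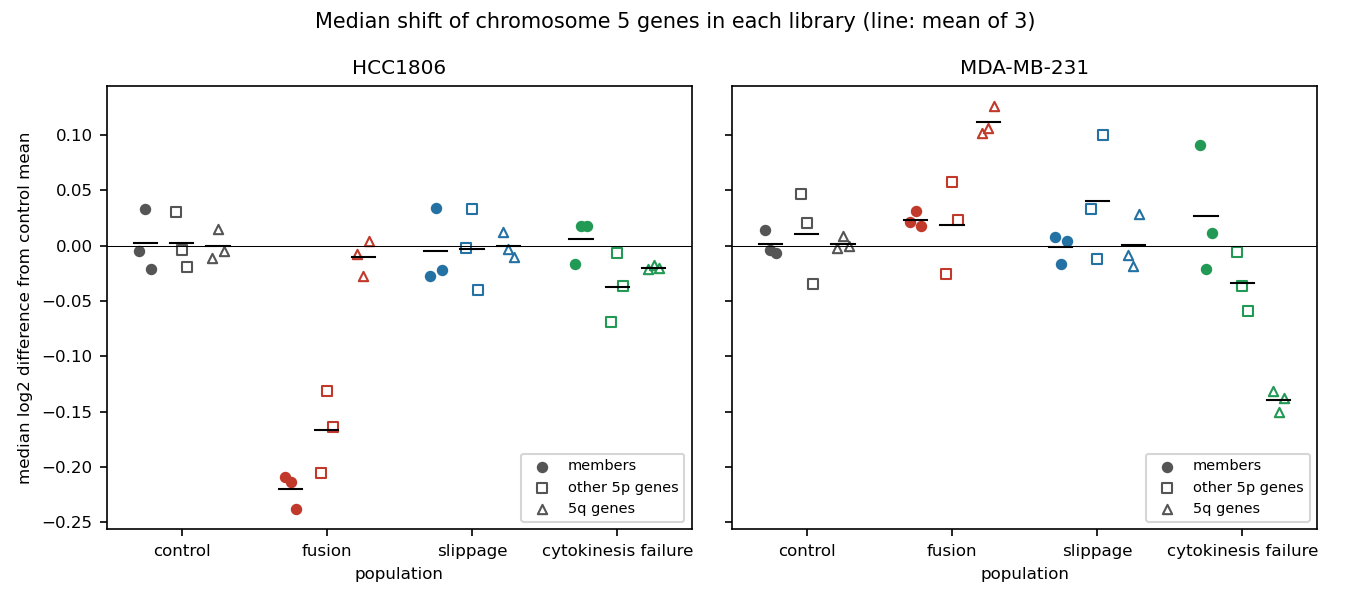
Median log2 difference from the control mean (vertical axis) in each library for the members, the other tested 5p genes and the tested 5q genes, by population (horizontal axis) in HCC1806 (left) and MDA-MB-231 (right); short lines are means of 3 libraries. In HCC1806 fusion the members sit between -0.21 and -0.24 and 5q near 0; in MDA-MB-231 the 5q genes depart from 0 in fusion and cytokinesis failure and the members stay near 0.

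Along the arm the fusion median of the members was below 0 in each of 4 bands. The 4 medians were not equal. Whether they differ beyond the spread of single genes was not tested. The 8 tested members starting below 5 Mb, nearest the telomere, had a median of -0.14. The 13 members between 5 and 20 Mb had -0.28, the 11 members between 20 and 36 Mb had -0.19, and the 17 members from 36 Mb onward had -0.23. Within single fusion libraries the telomeric band stood at -0.13, -0.12 and -0.14. The band from 5 to 20 Mb stood at -0.33, -0.23 and -0.37, so in every fusion library it was the lower of these 2 bands. These libraries are replicates of 1 population read over the same genes, so their order repeats the values of those genes. The third band gave -0.15, -0.18 and -0.21 and the fourth -0.20, -0.28 and -0.17, and these overlapped. With all tested 5p genes in place of the members the 4 medians were -0.12 (19 genes), -0.26 (25), -0.20 (17) and -0.20 (34). The telomeric band is small, and on the log2(TPM + 1) scale its median was -0.20. Its distance from the third band was smaller on that scale. The median of all members moved there too, to -0.245, beside -0.037 for all tested genes. Across the 49 members the Spearman correlation of the difference with position was -0.073 and with mean level 0.035. Both are descriptions over genes that share the same libraries.

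**Figure D3:**
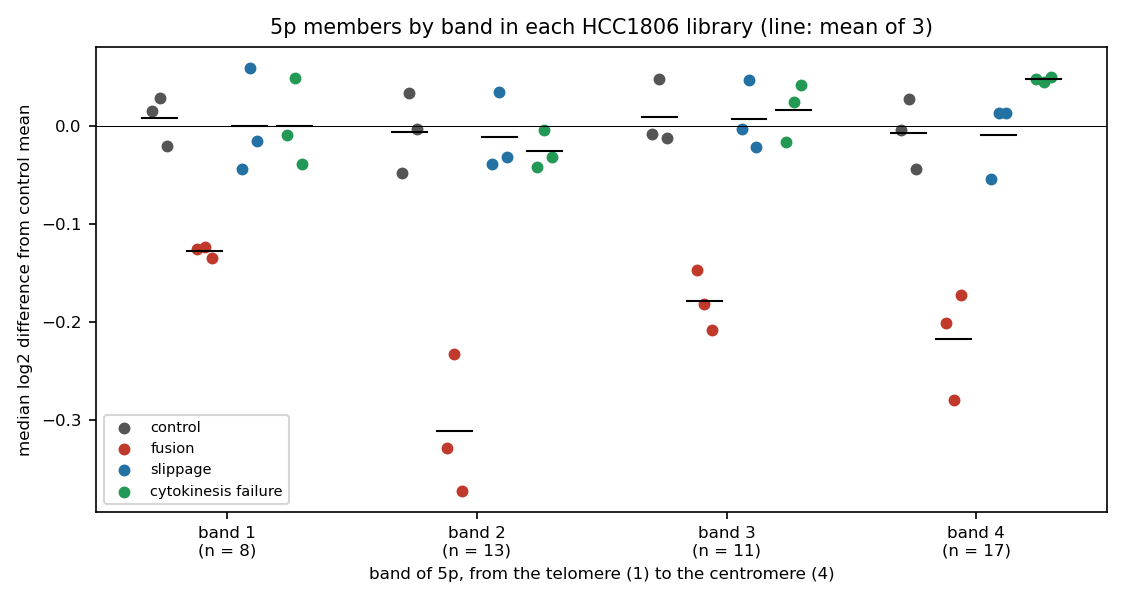
Median log2 difference from the control mean (vertical axis) over the members of each band of 5p (horizontal axis, telomere to centromere) in each HCC1806 library; short lines are means of 3 libraries. The 3 fusion libraries lie below all other libraries in every band, at about -0.13 in band 1 and between -0.23 and -0.37 in band 2.

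Gene by gene, 40 of the 49 members (81.6%) lay within 2 standard errors of the members' median, and 77.3% of all tested genes lay within 2 standard errors of the median of all genes. The median SE of a member was 0.081. Of the 9 members outside, 6 were lower and 3 were higher. The lower ones were LIFR at -1.47 ± 0.37 (SE), BASP1 at -1.24 ± 0.15, LMBRD2 at -0.74 ± 0.23, ZNF622 at -0.42 ± 0.088, ANKH at -0.41 ± 0.077 and MYO10 at -0.39 ± 0.054. The higher ones were PDCD6 at -0.05 ± 0.059, DROSHA at -0.01 ± 0.073 and SUB1 at 0.0053 ± 0.040. ZNF622, MYO10 and BASP1, all among the lower ones, start between 16.5 and 17.2 Mb. SUB1, among the higher ones, starts at 32.6 Mb, close to ZFR at 32.4 Mb, which had -0.28 ± 0.049. CEP72 (0.28 ± 0.27), SLC1A3 (0.25 ± 0.29) and FBXO4 (0.20 ± 0.34) had positive values with wide errors on low counts.

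Several of these genes are shown here with the 250 bases before their most upstream start in the RefSeq table (GRCh38.p14), because they follow the shared shift (SKP2), exceed it (BASP1, ZNF622) or move in other populations instead (DAB2). Capitals mark matches, on either strand, to the GC box GGGCGG, the CCAAT box CCAAT and the ETS motif CCGGAAG; no 2 kinds of match overlap in these 4 windows.
SKP2, chr5:36151861-36152110, forward strand: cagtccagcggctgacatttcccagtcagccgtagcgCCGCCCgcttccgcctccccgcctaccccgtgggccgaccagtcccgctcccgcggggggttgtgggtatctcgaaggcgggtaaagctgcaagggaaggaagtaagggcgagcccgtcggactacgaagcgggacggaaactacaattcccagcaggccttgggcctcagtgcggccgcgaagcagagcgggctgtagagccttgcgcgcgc
BASP1, chr5:17216573-17216822, forward strand: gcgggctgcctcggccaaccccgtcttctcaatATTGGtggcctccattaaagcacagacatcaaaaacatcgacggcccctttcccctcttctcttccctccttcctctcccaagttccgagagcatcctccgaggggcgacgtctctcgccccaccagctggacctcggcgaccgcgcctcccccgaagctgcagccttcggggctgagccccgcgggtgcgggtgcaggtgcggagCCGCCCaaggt
ZNF622, chr5:16465801-16466050, reverse strand: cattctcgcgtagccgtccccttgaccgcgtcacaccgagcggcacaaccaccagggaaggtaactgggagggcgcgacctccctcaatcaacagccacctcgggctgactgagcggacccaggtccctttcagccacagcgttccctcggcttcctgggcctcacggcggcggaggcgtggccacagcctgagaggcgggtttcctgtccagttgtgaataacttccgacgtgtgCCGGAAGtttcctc
DAB2, chr5:39424981-39425230, reverse strand: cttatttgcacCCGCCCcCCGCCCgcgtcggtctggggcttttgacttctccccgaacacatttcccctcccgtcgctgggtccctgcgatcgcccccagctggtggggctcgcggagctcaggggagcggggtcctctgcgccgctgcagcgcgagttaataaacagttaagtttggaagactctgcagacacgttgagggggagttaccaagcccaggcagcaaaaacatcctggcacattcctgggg
The table held such a window for 48 of the 53 members. Their GC content had a median of 67.6% against 57.6% over 27305 genes. GGGCGG was found in 37 of the 48 (77.1%, against 42.2% of all windows), CCGGAAG in 10 (20.8% against 8.78%), CCAAT in 11 (22.9% against 33.0%) and the TATA box TATAAA in 0 (against 11.2%). The E2F-type motif TTTGGCGC was found in 3 (6.25% against 0.542%). The window of LIFR, which is not printed above, held no match to any of these motifs and had 45.2% GC. That window ran from 38595406 to 38595655, inside the RefSeq span of the gene (38474668 to 38608403). It is therefore not the stretch before the span. None of these windows was measured here, and a match is only a match of letters.

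BASP1, on chromosome 5 from 17216823 to 17276834, encodes a membrane-bound protein of the cell cortex that also acts as a transcriptional corepressor. Its level was 43.3, 48.4 and 44.7 CPM in HCC1806 control libraries and 21.2, 22.6 and 13.4 CPM in fusion. In slippage it was 60.5, 59.2 and 64.6 CPM, and in cytokinesis failure 83.9, 63.4 and 88.4 CPM. Every fusion library lay below every control library, and every slippage and cytokinesis failure library lay above the controls. In MDA-MB-231, which was scaled apart from HCC1806, it stood at 198, 211 and 201 CPM in the controls and 182 to 234 CPM in the doubled populations.

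LIFR (38474668 to 38608403), the receptor subunit for leukaemia inhibitory factor, was near the detection limit in HCC1806. It had 4.63, 3.31 and 7.5 CPM in the controls and 0.885, 2.32 and 2.44 CPM in fusion, which rest on 3 to 8 counts per fusion library. The groups did not overlap. The difference was -1.09 without control replicate 3, -1.14 without fusion replicate 1 and -0.32 on the log2(TPM + 1) scale, where low genes shrink. LMBRD2, a membrane protein gene at 36098407 to 36151887, went from 9.52, 11.6 and 9.83 CPM to 6.19, 6.68 and 5.49 CPM.

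Among the members within 2 standard errors of the median, SKP2 (36152111 to 36193530), the substrate-binding subunit of an SCF ubiquitin ligase that targets cell cycle inhibitors, had 93.3, 98.4 and 87.9 CPM in the controls and 78.1, 76.6 and 82.6 CPM in fusion, a difference of -0.23 ± 0.072. NIPBL (36876769 to 37066413), which loads cohesin onto chromosomes, went from 205, 223 and 205 CPM to 181, 189 and 178 CPM. TARS (33440696 to 33468091), the threonyl-tRNA synthetase, went from 346, 364 and 350 CPM to 322, 304 and 306 CPM. In none of these genes did a fusion library reach a control library. SUB1 (32585557 to 32604079), a transcriptional coactivator, stayed at 473, 465 and 467 CPM in fusion against 465, 471 and 464 CPM in the controls, with an interval of the difference from -0.07 to 0.08 (95%). SUB1 has 4 named pseudogenes, so its counts may hold reads that belong elsewhere. The same limit applies to all 9 members with a named pseudogene, among them BASP1, ZFR, BRIX1, PAIP1 and CLPTM1L with 1 each. DROSHA (31400494 to 31532093), the nuclease that starts microRNA processing, had 90.2, 98.1 and 85.6 CPM in fusion, within the range of the controls, whose lowest library had 83.5 CPM.

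At the ends of the arm, PDCD6 (271646 to 314974), a calcium-binding protein linked to cell death and membrane repair, is the tested member nearest the telomere. It had 172, 170 and 192 CPM in fusion against 186, 179 and 185 CPM in the controls. These overlapped, and AHRR overlaps PDCD6 on the same strand, so their reads may be shared. NNT (43602675 to 43707396), the transhydrogenase that supplies NADPH in mitochondria, is nearest the centromere. It had 21.2, 24.1 and 25 CPM in fusion and 30.2, 31.5 and 29.2 CPM in the controls, a difference of -0.37 ± 0.13 without overlap. NNT-AS1 overlaps it on the other strand, and the strand setting of the counting is not given in the sources used here.

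By role, the medians of the groups in fusion against control ran from -0.39 for the cytoskeletal members to -0.09 for the cell death members. All 6 tested members of ribosome assembly, translation and tRNA modification (BRIX1, DNAJC21, NSUN2, PAIP1, TARS, ZNF622) were below 0, with a median of -0.23 and a range from -0.42 to -0.18. All 9 members of mitochondria and metabolism were below 0 (median -0.24, from -0.38 to -0.10), among them CMBL, OXCT1 and NNT. All 6 tested signalling and guidance members were below 0 (median -0.26), with TRIO, a guanine nucleotide exchange factor, at -0.28 and PRKAA1, a catalytic subunit of AMP-activated kinase, at -0.10. Of 6 tested members of cell division and DNA repair, 4 were below 0 (median -0.17), the exceptions being CEP72 and FBXO4. Of 6 members of transcription, chromatin and small RNA, 5 were below 0 (median -0.12), with MED10, a Mediator subunit, at -0.26 and ZFR at -0.28. Of 8 membrane transport and trafficking members, 7 were below 0 (median -0.19), and CLPTM1L stood at -0.19 and GOLPH3 at -0.19. All 3 cytoskeletal members were below 0, with BASP1 at -1.24, MYO10 at -0.39 and RAI14 at -0.15. Both cell death members were below 0, DAP at -0.14 and PDCD6 at -0.05, and the nuclear pore member NUP155 stood at -0.25. The role groups were drawn up with earlier results known, and all these values come from the contrast that chose the genes.

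In HCC1806 cells doubled by mitotic slippage the members showed no common shift. Their median against control was -0.0058, and 2 of 49 were called lower and 1 higher, beside 1.81% and 1.53% of all tested genes. This comparison uses the same 3 control libraries as the fusion contrast that chose the members, as does cytokinesis failure against control. DAB2 (39371677 to 39424980), an endocytic adaptor, had 8.16, 9.61 and 12.4 CPM in the controls and 5.45, 4.14 and 5.19 CPM in slippage, without overlap. It fell by 1.02 ± 0.25 (edgeR adjusted p = 0.00614). The call was lost without control replicate 3 (edgeR adjusted p = 0.113, the highest of 13 alternatives that began at 0.00455). On log2(TPM + 0.1) and log2(TPM + 1) it was lost as well (limma-trend adjusted p = 0.0710 and 0.0534). MYO10, an unconventional myosin of filopodia at 16661907 to 16936288, had 242, 238 and 229 CPM in the controls and 211, 216 and 192 CPM in slippage, and it fell by 0.20 ± 0.053 (edgeR adjusted p = 0.0196). BASP1 rose by 0.44 ± 0.12 (edgeR adjusted p = 0.0292). The calls of both genes were lost in many alternatives while the differences kept their direction. That of BASP1 was lost without any 1 of the 6 libraries, with the difference at 0.40 to 0.48 (adjusted p = 0.0700 to 0.190; 0.000266 to 0.309 over its 14 alternatives). That of MYO10 was lost, at -0.20 to -0.15, without control replicate 1 (0.114), control replicate 2 (0.0581) or slippage replicate 3 (0.202), with 0.0100 to 0.264 over its 14 alternatives. Only 1 member was called without control replicate 1, 2 or 3 or slippage replicate 3, and DESeq2 called 0 at the adjusted threshold, with 3 members at an unadjusted p under 0.05 against 4 for edgeR.

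In HCC1806 cells doubled by cytokinesis failure 7 of 49 members were called lower and 3 higher, beside 8.63% and 8.37% of all tested genes, and their median was 0.0054. On both TPM scales 3 members were called lower and 3 higher. DAB2 had 3.24, 3.65 and 4.94 CPM, all below its controls, and fell by 1.35 ± 0.25 (edgeR adjusted p = 2.2e-05). MYO10 had 168, 180 and 167 CPM and fell by 0.46 ± 0.054 (edgeR adjusted p = 4.72e-11). RAI14 (34656328 to 34832612), an actin-binding protein, had 100, 111 and 107 CPM in the controls and 79.2, 83.5 and 77.3 CPM here, and fell by 0.41 ± 0.068 (edgeR adjusted p = 2.63e-06). No library of these 3 genes crossed between the groups. SLC1A3 (36596588 to 36688334), a glutamate and aspartate transporter, had 3.81, 5.64 and 4.66 CPM in the controls and 11.2, 8.35 and 9.14 CPM here, and rose by 1.04 ± 0.25 (edgeR adjusted p = 0.00157). BASP1 rose by 0.80 ± 0.11 (edgeR adjusted p = 1.88e-06). SKP2 rose by 0.30 ± 0.066, to 116, 115 and 113 CPM (edgeR adjusted p = 0.000325).

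The other lower calls after cytokinesis failure were smaller. NSUN2, an RNA methyltransferase, fell by 0.29 ± 0.065 (edgeR adjusted p = 0.000466), and BRIX1, a ribosome assembly factor, fell by 0.24 ± 0.051 (edgeR adjusted p = 0.000267). MED10 fell by 0.19 ± 0.057 (edgeR adjusted p = 0.0114) and CLPTM1L by 0.13 ± 0.040 (edgeR adjusted p = 0.0144). MED10 was not called without control replicate 1 (0.0807) or cytokinesis failure replicate 1 (0.139), with 0.00566 to 0.152 over its 14 alternatives. CLPTM1L was not called without cytokinesis failure replicate 1 (0.123), with 0.0126 to 0.335 over its 14 alternatives. On the TPM scale neither was called, and NSUN2 and BRIX1 were not called either. RAD1 overlaps BRIX1 on the other strand in GENCODE 29. The summed level of a list of 3 leukocyte markers, CD68 giving at least 99.0% of the counts and CD3E being at 0, was 24.4 to 29.2 CPM after cytokinesis failure, 28.7 to 31.4 after slippage and 34.6 to 37.1 in the controls, and its part in these results was not tested.

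**Figure D4:**
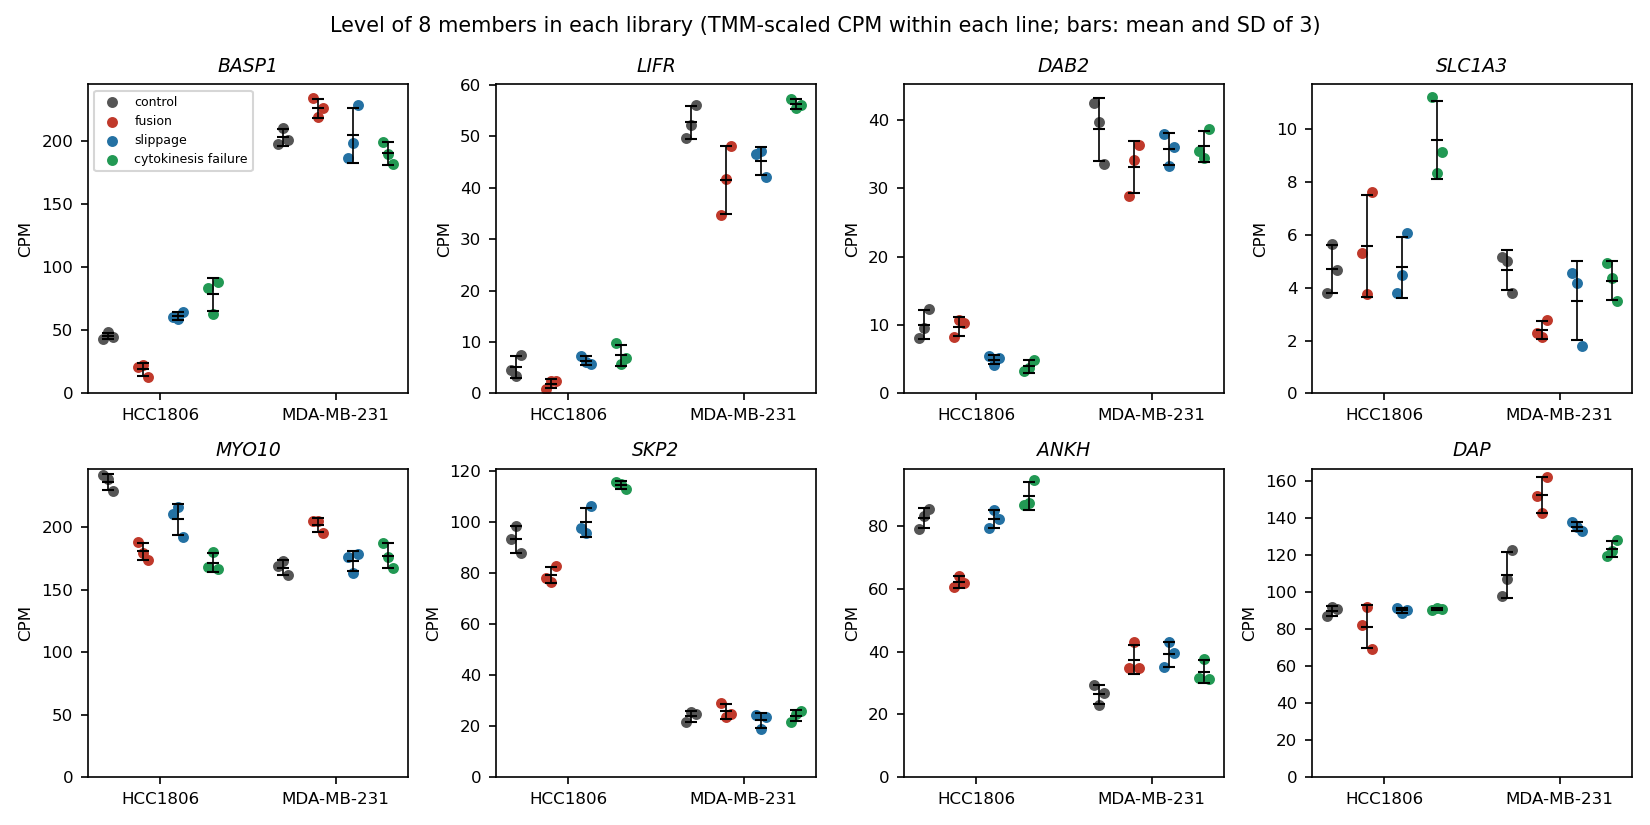
Level in CPM (vertical axes, from 0) of 8 members in each library of both lines, by population; bars are mean and SD of 3 libraries. BASP1 is lowest in HCC1806 fusion and highest there after cytokinesis failure, DAB2 is below control after slippage and cytokinesis failure in HCC1806, and DAP and ANKH stand above control in MDA-MB-231 fusion and slippage.

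Slippage and cytokinesis failure were also compared with each other in HCC1806, a comparison free of both the control and the fusion libraries. Of the 49 members, 3 were lower and 4 higher in slippage, beside 2.72% and 4.08% of all tested genes, with a median of 0.020. SLC1A3 was lower by 1.00 ± 0.25 (edgeR adjusted p = 0.00628), BASP1 by 0.36 ± 0.10 (edgeR adjusted p = 0.0288) and SKP2 by 0.20 ± 0.065 (edgeR adjusted p = 0.0467). RAI14 was higher by 0.33 ± 0.069 (edgeR adjusted p = 0.000675), NSUN2 by 0.30 ± 0.065, MYO10 by 0.26 ± 0.055 and BRIX1 by 0.23 ± 0.051. Of these, NSUN2 had an edgeR adjusted p of 0.00113, MYO10 of 0.000432 and BRIX1 of 0.00139. The calls of SKP2 and BASP1 lay near the threshold. That of SKP2 was lost in 11 of its 14 alternatives, among them the replicate block (0.0511), no filter (0.0841), only the 6 libraries compared (0.0699), DESeq2 (0.205) and both TPM scales. It was also lost, at -0.21 to -0.17, without any of the 3 cytokinesis failure libraries or slippage replicate 1 or 2 (0.0797 to 0.220; 0.0286 to 0.220 over its 14 alternatives). That of BASP1 was lost with DESeq2 (0.105), on both TPM scales and, at -0.40 to -0.27, without cytokinesis failure replicate 1 or 3 or any slippage library (0.0649 to 0.149; 7.68e-05 to 0.166 over its 14 alternatives). Without cytokinesis failure replicate 1, SLC1A3 (0.0642) and BRIX1 (0.0587) were lost as well and 3 members were called in all, and without slippage replicate 1 SLC1A3 (0.0644) was lost and 4 were called. SLC1A3 ranged from 0.00485 to 0.0644 over its 13 alternatives and BRIX1 from 0.000196 to 0.185 over 14. On both TPM scales RAI14, NSUN2, MYO10 and BRIX1 were not called (limma-trend adjusted p = 0.0879 to 0.494), with MYO10 at 0.13 on each. SLC1A3 was not called on log2(TPM + 0.1) (limma-trend adjusted p = 0.0544).

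Against the other doubled populations of HCC1806, the fusion libraries had a member median of -0.23 against slippage and -0.19 against cytokinesis failure. These comparisons reuse the 3 fusion libraries on which the list was made, so their values stand beside those above and support nothing. Against slippage 24 members were lower and 1 higher, beside 5.02% and 4.2% of all genes. Leaving out slippage replicate 2 gave 16 calls in all, and DESeq2 also gave 16. Against cytokinesis failure 21 were lower and 2 higher, beside 8.96% and 8.96%. The member higher in fusion than in slippage was DAB2 at 0.98 ± 0.25, and those higher than in cytokinesis failure were DAB2 at 1.30 ± 0.25 and RAI14 at 0.26 ± 0.070. BASP1 had -1.68 ± 0.14 against slippage and -2.04 ± 0.13 against cytokinesis failure, and LIFR had -1.75 ± 0.36 and -1.97 ± 0.34.

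In MDA-MB-231 no population showed a lower level of the members as a whole. In fusion against control 2 of 48 members were called lower and 6 higher, beside 8.11% and 9.34% of all 11424 tested genes, and the median was 0.058. The direction of that median depends on the scale. On log2 TPM the median of all genes moved to between -0.12 and -0.11 and the members to -0.057 and -0.053, but relative to all genes the members stood 0.052 to 0.064 higher on these scales and 0.060 higher on the counts. On TPM 4 members were called lower and 1 higher. DAP (10679230 to 10761234), a negative regulator of autophagy, had 98.2, 107 and 123 CPM in the controls and 152, 143 and 162 CPM in fusion, and rose by 0.48 ± 0.073 (edgeR adjusted p = 5.48e-06). ANKH (14704800 to 14871778), a transporter that exports ATP and citrate, had 29.3, 23.2 and 26.8 CPM in the controls and 34.8, 42.9 and 34.7 CPM in fusion, and rose by 0.50 ± 0.13 (edgeR adjusted p = 0.00491). No library of either gene crossed between control and fusion. The call of ANKH was lost without fusion replicate 2 (0.0702) and on both TPM scales (0.107 and 0.112), with 0.00154 to 0.112 over its 15 alternatives.

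MYO10 rose in MDA-MB-231 fusion by 0.27 ± 0.062, from 169, 173 and 161 CPM to 205, 205 and 195 CPM (edgeR adjusted p = 0.00186). SUB1 rose by 0.21 ± 0.057 (edgeR adjusted p = 0.00672), TARS by 0.18 ± 0.057 (edgeR adjusted p = 0.0230) and ZFR by 0.17 ± 0.057 (edgeR adjusted p = 0.0279). On TPM none of MYO10, SUB1, TARS, ZFR and ANKH was called. LIFR, which is well measured in this line, had 49.7, 52.2 and 56.1 CPM in the controls and 34.8, 41.7 and 48.1 CPM in fusion, and fell by 0.34 ± 0.11 (edgeR adjusted p = 0.0214). TRIP13, a checkpoint ATPase overlapped by BRD9 on the other strand, fell by 0.43 ± 0.16 (edgeR adjusted p = 0.0487). The calls of TARS, ZFR, LIFR and TRIP13 were lost in several alternatives, DESeq2 among them (0.0586, 0.0703, 0.0897 and 0.181). That of TRIP13 was also lost with the replicate block (0.0526), RLE scaling (0.0512) and no filter (0.0644), with its difference at -0.43 in each. Omission of control replicate 1 or 2, or of fusion replicate 1 or 3, ended the TARS call (0.0516 to 0.150; 0.00474 to 0.536 over its 15 alternatives). Omission of control replicate 1, or of fusion replicate 1 or 2, ended that of ZFR (0.0692 to 0.181; 0.0105 to 0.647). For LIFR it was control replicate 2 or 3, or fusion replicate 1 or 2 (0.0512 to 0.192; 0.00592 to 0.192). For TRIP13 it was control replicate 1 or 2, or any fusion library (0.0806 to 0.253; 0.0203 to 0.253). In all, 5 members were called without control replicate 1, control replicate 2 or fusion replicate 1, and 4 without fusion replicate 2.

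**Figure D5:**
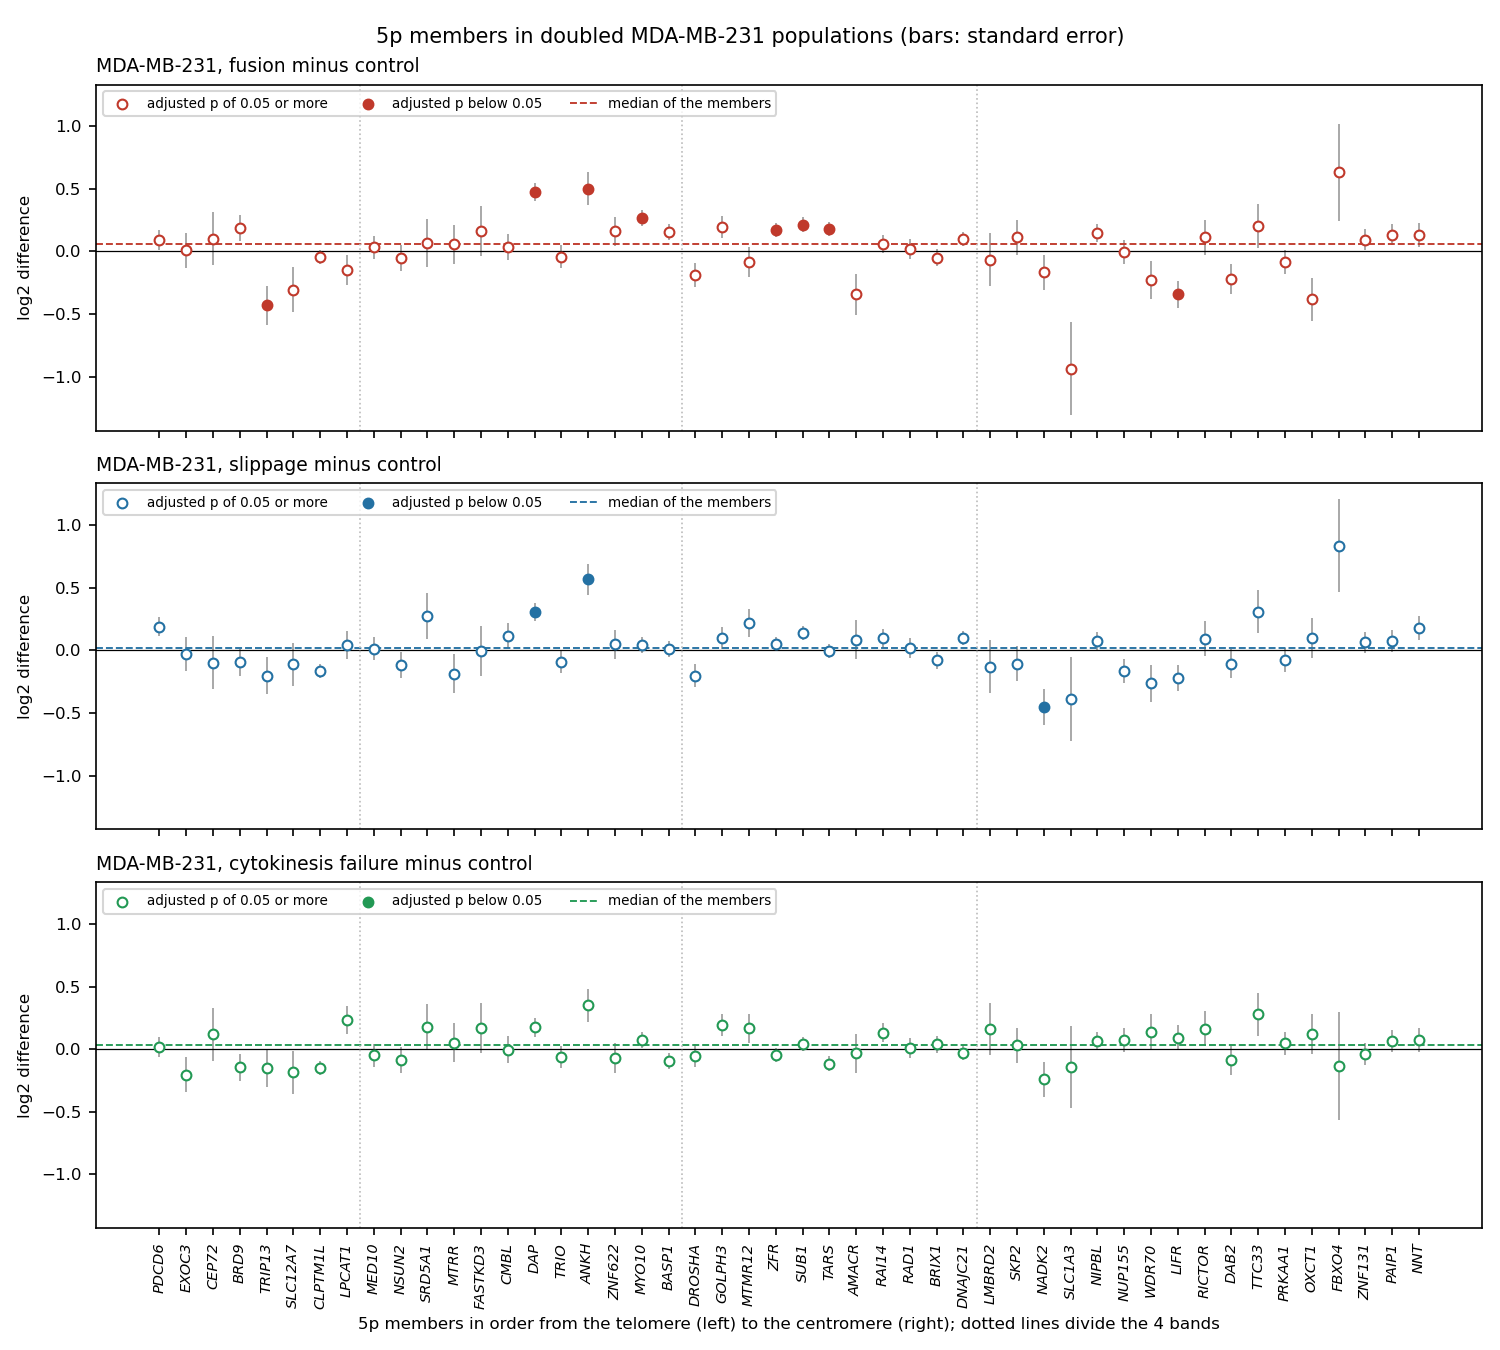
Log2 difference from control (vertical axis) of the 48 tested 5p members in MDA-MB-231, in order along the arm (horizontal axis), for fusion, slippage and cytokinesis failure; bars are standard errors, dashed lines are medians of the members, and filled points have an adjusted p below 0.05. The medians stay between 0.016 and 0.058, and the cytokinesis failure panel has 0 filled points.

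In MDA-MB-231 slippage 1 of 48 members was called lower and 2 higher, beside 2.91% and 3.27% of all tested genes, with a median of 0.016. It shares its 3 control libraries with the fusion comparison. ANKH had 34.9, 43.0 and 39.4 CPM and rose by 0.57 ± 0.13 (edgeR adjusted p = 0.00340). DAP had 138, 135 and 133 CPM and rose by 0.31 ± 0.074 (edgeR adjusted p = 0.00703). NADK2, the mitochondrial NAD kinase, had 26.4, 31.9 and 26.8 CPM in the controls and 18.5, 18 and 25.9 CPM in slippage, and fell by 0.45 ± 0.14 (edgeR adjusted p = 0.0479). SKP2 and NADK2 lie tail to tail and their RefSeq spans overlap between 36192589 and 36193530. The call of DAP was lost without control replicate 1 (0.120; 0.00149 to 0.120 over its 15 alternatives), which left 1 member called. NADK2 was lost without any control library or slippage replicate 1 or 2 (0.0712 to 0.259; 0.00435 to 0.259). It was also lost with the replicate number as a block (0.0676). On TPM none of the 3 was called.

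In MDA-MB-231 cytokinesis failure edgeR called 0 members in either direction, beside 2.35% lower and 2.29% higher of all tested genes. At an unadjusted p under 0.05 there were 1 lower and 4 higher members, and DESeq2 called 0, with 2 at an unadjusted p under 0.05. The median was 0.034, and ANKH at 0.35 ± 0.13 (edgeR adjusted p = 0.134) had an interval from 0.09 to 0.61 (95%). In the same comparison the 420 tested 5q genes had a median of -0.16, and in fusion they had 0.11. The same leukocyte list, with CD68 giving at least 99.5% of the counts and CD3E at 0, was higher in all doubled MDA-MB-231 populations, at 90.5 to 109.8 CPM in fusion, 109 to 111 in slippage and 106 to 123 in cytokinesis failure against 67.4 to 74.96 in the controls. Its part in the values of this line was not tested.

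The lines were set against each other by a test of the difference between their effects in a fit of all 24 libraries, for slippage and cytokinesis failure. The fusion effects were not compared, since the list was made on the HCC1806 one. For slippage 2 of 49 members had a lower effect in HCC1806 and 0 a higher one, beside 1.88% and 1.66% of 12563 genes. At an unadjusted p under 0.05 the counts were 7 and 4, and DESeq2 called 1 lower and 0 higher. The 2 members were ANKH at -0.57 ± 0.14 (edgeR adjusted p = 0.00747) and DAB2 at -0.92 ± 0.27 (edgeR adjusted p = 0.0331). For cytokinesis failure 4 members had a lower effect in HCC1806 and 1 a higher one, beside 3.22% and 3.31%. BASP1 had a higher effect by 0.90 ± 0.14 (edgeR adjusted p = 1.03e-05). DAB2 had a lower one by 1.26 ± 0.27 (difference -1.26, edgeR adjusted p = 0.000698), as had MYO10 (-0.53 ± 0.083, edgeR adjusted p = 1.72e-06), RAI14 (-0.53 ± 0.10, edgeR adjusted p = 0.000111) and BRIX1 (-0.27 ± 0.084, edgeR adjusted p = 0.0352). BASP1, MYO10, RAI14 and DAB2 kept their calls for cytokinesis failure in all 17 alternatives each. The TPM scales were not among these alternatives.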

How the data were processed

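TAGseq gave 24 libraries, per the labels' protocols. The submitters' processing notes name STAR, Salmon and the build GRCh38 (hg38), with no role or version. Annotation, trimming and strand setting are not given in the sources used here. The authors deposited estimated counts per gene (4.41% of them not whole) and, in a second table, TPM. Each table column is named in the labels of 1 sample.

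Counts were rounded and each line's 12 libraries fitted in edgeR 4.0.16 (filterByExpr, TMM, robust quasi-likelihood F-test, R 4.3.3). A Benjamini-Hochberg adjusted p below 0.05 over all tested genes made a call. Standard errors are the log2 difference over the square root of F, and intervals are 1.96 of them either side. Per-library medians used log2 CPM with a prior count of 2. Positions came from RefSeq on GRCh38.p14 (97.8% and 97.9% of tested genes placed), with TARS listed there as TARS1, and overlaps and pseudogenes from GENCODE 29. HCC1806 had a biological coefficient of variation of 3.88%, MDA-MB-231 of 5.28%.

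The members, role groups, bands and lists were chosen with earlier results of these data known. Genes named were the 5 lowest and 5 highest members in HCC1806 fusion, up to 6 called members per comparison and direction, the members at both ends of the arm, up to 3 of highest level per role group, and the 3 lowest and 3 highest other 5p genes above a floor of 2 on mean log2 CPM. Others named were picked after their values were seen. The fits were repeated with limma-trend 3.58.1 on TPM after adding 1 or 0.1 and taking log2, with DESeq2 1.42.0 and with RLE scaling, and also with no filter, a filter of 10 counts, fits of only the 6 libraries compared, a replicate block, omission of each replicate (for the line differences added after seeing the data) and omission of 2 noisier MDA-MB-231 libraries. The line differences were not refitted on TPM, with only the libraries compared or without the 2 noisier libraries. The fit was tested on simulated data. Promoter motifs were searched in 1 window a gene. 1 marker of the leukocyte list is not reported here and was left out of its sum.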

Additional observations from a re-analysis of the deposited data

Results flagged for a closer look

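Members whose response to the same route of doubling differed between HCC1806 and MDA-MB-231 by the test of the difference itself are given here, each as the log2 effect in HCC1806 minus that in MDA-MB-231. For slippage these were ANKH (-0.57) and DAB2 (-0.92). The ANKH difference was not called without MDA-MB-231 control replicate 2 (adjusted p = 0.0575) or slippage replicate 2 (0.0554), with 0.00316 to 0.0575 over its 17 alternatives. ANKH had an effect of -0.01 in HCC1806 and 0.57 in MDA-MB-231. The DAB2 difference was not called without HCC1806 control replicate 2 or 3, any HCC1806 slippage library, MDA-MB-231 control replicate 3 or MDA-MB-231 slippage replicate 1 or 3 (adjusted p = 0.0503 to 0.214; 0.0198 to 0.214 over its 16 alternatives). Only 1 member was called for slippage without HCC1806 control replicate 3, HCC1806 slippage replicate 1 or 2, MDA-MB-231 control replicate 2, or MDA-MB-231 slippage replicate 1 or 2.

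For cytokinesis failure the members were BASP1 (0.90), DAB2 (-1.26), MYO10 (-0.53), RAI14 (-0.53) and BRIX1 (-0.27). BASP1 rose in HCC1806 and had -0.10 ± 0.065 in MDA-MB-231. The BRIX1 difference was not called without HCC1806 control replicate 1 or 3, HCC1806 cytokinesis failure replicate 1 or 3, MDA-MB-231 control replicate 2 or 3, or MDA-MB-231 cytokinesis failure replicate 1 or 3 (adjusted p = 0.0502 to 0.154; 0.0114 to 0.154 over its 17 alternatives).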

How the results depend on the processing

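The fusion shift of the members in HCC1806 had the same direction under every alternative, with a median of -0.27 on log2(TPM + 0.1), -0.24 (-0.245) on log2(TPM + 1) and -0.23 to -0.19 without single replicates. The first band gave -0.20 (-0.197) on log2(TPM + 1), -0.12 with all tested 5p genes and -0.19 to -0.11 without single replicates, and the third band -0.23 (-0.225) on log2(TPM + 1). No named call changed direction. Of 38 named calls that use no HCC1806 fusion library, 11 held under every alternative run for them and 27 were lost under at least 1. Calls of the line differences had no TPM alternative. Counts of called members moved with the tool, the filter, the scale and single libraries. DESeq2 gave 0 for HCC1806 slippage against control, 4 for slippage against cytokinesis failure, 16 for fusion against slippage, 14 for fusion against cytokinesis failure, 4 for MDA-MB-231 fusion and 1 for the slippage difference between lines, which had 4 without a filter. On log2(TPM + 0.1) and log2(TPM + 1) the counts were 0 and 0 for HCC1806 slippage, 6 and 6 for cytokinesis failure, 0 and 1 for slippage against cytokinesis failure, 14 and 13 for fusion against slippage, 5 and 5 for MDA-MB-231 fusion, and 0 and 0 for MDA-MB-231 slippage. Medians on the same 2 scales were 0.055 and 0.053 for cytokinesis failure, -0.058 and -0.054 for slippage against cytokinesis failure, -0.25 (first scale only) for fusion against slippage, -0.28 and -0.26 for fusion against cytokinesis failure, -0.057 and -0.053 for MDA-MB-231 fusion, and -0.012 and -0.012 for MDA-MB-231 slippage. On these scales the median of all genes moved too, to 0.052 and 0.045 for cytokinesis failure. It was -0.081 and -0.071 for slippage against cytokinesis failure, and -0.089 and -0.077 for fusion against cytokinesis failure. Relative to all genes the members stood at 0.0033 and 0.0079, 0.023 and 0.017, and -0.195 and -0.185 in these comparisons. On the counts these distances were 0.0037, 0.020 and -0.195. The cause of these moves was not tested. Without single replicates the medians ran from -0.030 to 0.019 for cytokinesis failure, -0.24 to -0.21 for fusion against slippage, 0.039 to 0.072 for MDA-MB-231 fusion and -0.011 to 0.043 for MDA-MB-231 slippage. The counts ran from 1 to 2 for HCC1806 slippage, 3 to 6 for slippage against cytokinesis failure, 16 to 22 for fusion against slippage, 4 to 7 for MDA-MB-231 fusion, and 1 to 3 for MDA-MB-231 slippage and for the slippage difference.

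Replicate numbers did not pair the samples. After each gene's group mean was taken off, same-numbered libraries of different groups correlated between -0.097 and 0.077 in HCC1806. In MDA-MB-231 these correlations ran from -0.19 to 0.088. Libraries with different numbers ran from -0.16 to 0.20 in HCC1806 and from -0.11 to 0.17 in MDA-MB-231. In each line 3 of 12 libraries correlated best with a library of their own number. With the replicate block the counts were 21 (HCC1806 fusion), 3 (slippage), 10 (cytokinesis failure), 6 (slippage against cytokinesis failure), 25 and 23 (fusion against these), 7, 2 and 0 (MDA-MB-231 fusion, slippage, cytokinesis failure), and 2 and 5 for the line differences. Few counts limit LIFR, SLC1A3, FBXO4, CEP72 and DAB2 in HCC1806.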

Other observations

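The members left out of a fit in at least 1 line are given by their counts. SEMA5A, fitted in HCC1806 only, an axon guidance molecule at 9035033 to 9546075, had 56 to 118 counts in every HCC1806 library and 0 to 6 in MDA-MB-231. Its HCC1806 levels were 21.8, 28.5 and 21.7 CPM in the controls, 18.3, 19.2 and 17.1 CPM in fusion, 32.1, 27.1 and 22.2 CPM in slippage and 23.4, 23.7 and 21.5 CPM in cytokinesis failure. NKD2, an inhibitor of Wnt signalling, had 1 to 8 counts in HCC1806 and 0 in all MDA-MB-231 libraries. TERT, the telomerase catalytic subunit, had 1 to 7 counts in HCC1806 and 0 to 2 in MDA-MB-231. FBXL7, a ubiquitin ligase subunit, had 4 to 7 counts in the MDA-MB-231 fusion libraries and 0 to 1 in every other library of both lines. GHR, the growth hormone receptor, had 0 to 1 in all libraries.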
